A study of Mus musculus with 6 samples.

Results

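The B cell receptor complex and B lineage genes described here are Cd79a, Cd79b, Cd22, Blk and Pou2af1, taken as every probe set that the platform annotation gives to 1 of these 5 genes alone. They are 5 of the 8511 genes named by the arrays, and they hold 13 probe sets, 6 in experiment 1 and 7 in experiment 2. RNA came from flow-sorted CD4+CD8+ double-positive thymocytes, the stage at which alpha-beta T cell precursors carry both coreceptors. The mice were Sox13 transgenics and wild-type littermates as controls, all C57BL/6 females of 6 weeks. Each sort pooled the thymocytes of at least 2 mice, so no value below is that of a single animal. The promoter that drives the transgene is not given in the sources used here.

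Experiment 1 used the Affymetrix Mu11K A and Mu11K B arrays, which together count as 1 replicate, and experiment 2 used the U74A array. Of every array type there was 1 with transgenic and 1 with wild-type RNA, 6 arrays in all. Values are scaled intensities, with the 2% trimmed mean of every array set to 500 and a floor of 100. A value under the floor was treated as 100 in a ratio, and a fold against it is given as "at least" that size. The share of probe sets above the floor ran from 46.9% to 57.4% over the arrays. No array type holds a replicate, and with so few arrays every value is imprecise.

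CD79A (Ig-alpha) and CD79B (Ig-beta) form the signaling dimer of the B cell receptor. They carry the tyrosine motifs that Src family kinases such as BLK phosphorylate once the membrane immunoglobulin binds antigen. CD22 is a sialic acid-binding inhibitory coreceptor that dampens this signal. POU2AF1, also known as OBF-1 or Bob1, is a coactivator that joins the octamer-binding proteins on immunoglobulin and other B cell promoters. Thymocytes of the alpha-beta lineage build their antigen receptor from other signaling chains, the CD3 and zeta proteins, and use the kinase LCK. In mice, Blk is also known to be expressed in some gamma-delta T cells, the lineage with which Sox13 is associated.

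The labels were checked first. Sox13 stood at 5951 in the transgenic sample and 27.4 in the wild-type sample in experiment 1, and at 3832 against 599.6 in experiment 2, although the labels describe the control cells as lacking endogenous Sox13. Every gene of the double-positive thymocyte list that the arrays named was above the floor in both genotypes, 5 of 5 on Mu11K A, 5 of 5 on Mu11K B and 11 of 11 on U74A. Of 10 B cell markers, which include the 5 members, 7 were on Mu11K A, with 4 above the floor in transgenic and 4 in wild-type cells. On U74A, 9 were present, with 6 above the floor in transgenic and 4 in wild-type cells. Cd22, Pou2af1 and Ebf1, which encodes a factor that specifies the B lineage, lay under the floor in both genotypes wherever they were measured.

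The 300 bases around a transcription start, 250 before it and 50 after, are shown for the 3 members that lay under the floor in both genotypes in at least 1 experiment. They come from RefSeq promoters of build GRCm38.p6, on the strand of the gene, and 3 of the 5 members matched that table. The Cd22 window lies inside the RefSeq span of the gene, chr7:30865404-30880342, and does not reach its upstream end at 30880342. Capitals mark TGCAAAT, the core of the octamer ATGCAAAT that POU2AF1 reaches through its partner proteins, and CCCNNGGG, the core of the sites bound by EBF1, searched on both strands.
Cd79a, chr7:24897247-24897546, plus strand: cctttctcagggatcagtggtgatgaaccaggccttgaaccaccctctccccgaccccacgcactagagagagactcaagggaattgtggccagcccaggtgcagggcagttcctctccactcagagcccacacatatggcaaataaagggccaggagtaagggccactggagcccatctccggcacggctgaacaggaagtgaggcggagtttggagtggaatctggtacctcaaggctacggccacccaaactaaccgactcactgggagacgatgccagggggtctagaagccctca
Cd22, chr7:30878979-30879278, minus strand: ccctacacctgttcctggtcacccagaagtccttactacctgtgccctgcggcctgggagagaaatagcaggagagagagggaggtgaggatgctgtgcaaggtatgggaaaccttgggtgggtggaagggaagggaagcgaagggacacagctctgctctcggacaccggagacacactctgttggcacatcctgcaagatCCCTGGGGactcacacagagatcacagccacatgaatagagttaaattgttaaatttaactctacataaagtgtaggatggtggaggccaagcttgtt
Pou2af1, chr9:51213440-51213739, plus strand: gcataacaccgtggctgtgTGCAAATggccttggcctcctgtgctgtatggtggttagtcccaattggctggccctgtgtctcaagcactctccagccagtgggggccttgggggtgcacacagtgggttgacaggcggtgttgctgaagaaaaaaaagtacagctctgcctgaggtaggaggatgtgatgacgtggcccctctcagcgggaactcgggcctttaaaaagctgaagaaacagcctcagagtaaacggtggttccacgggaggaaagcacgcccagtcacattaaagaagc

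The Pou2af1 window held the octamer core once and the Cd22 window held the EBF core once, while the Cd79a window held neither string. Among 32851 promoter windows of the same length, 4.02% held TGCAAAT, 1.74% held the full ATGCAAAT that contains it, and 13.7% held CCCNNGGG. A match is a string of letters in this window and not a binding site.

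Across the members, Blk was the gene with higher transcript in the transgenic sample at every probe set in both experiments, Cd79b was well above the floor in both genotypes with ratios of opposite sign, and Cd79a, Cd22 and Pou2af1 lay near or under the floor. Of the 13 probe sets, 7 passed the floor on at least 1 array of their pair, 4 on both arrays and 6 on neither. A probe set that passed only through the transgenic array had to be higher there, so the members that passed are not all members. In bulk RNA, fewer cells of a type and less RNA per cell cannot be told apart.

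**Figure D1:**
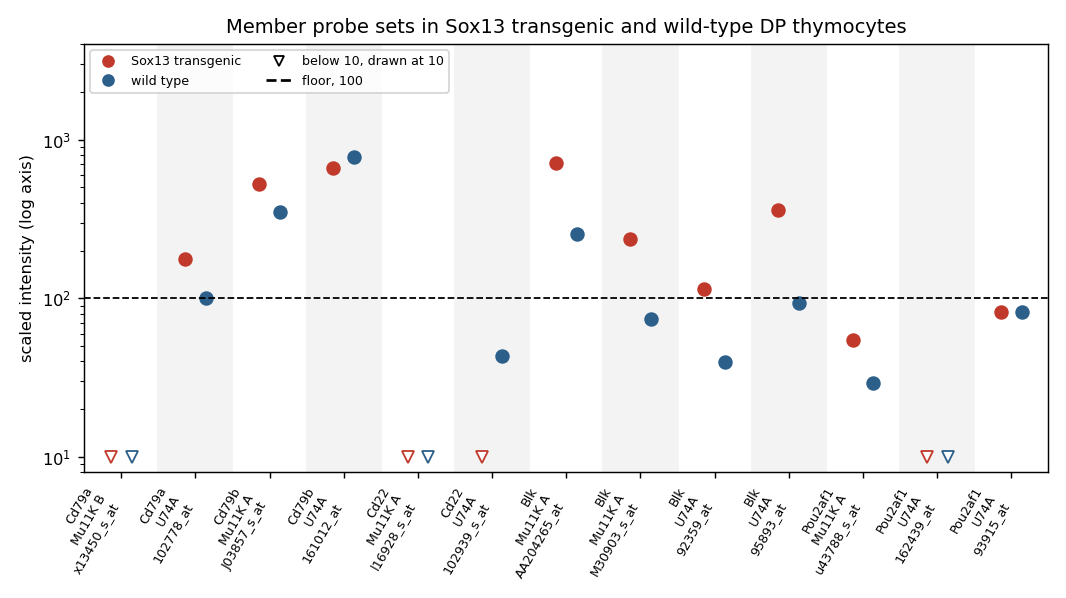
Scaled intensity (log axis) of each of the 13 member probe sets, with the Sox13 transgenic array in red and the wild-type array in blue, 1 array each, and the floor of 100 dashed. Open triangles stand for values below 10, negative ones included. All 4 Blk probe sets have the transgenic point above the wild-type point, both Cd79b probe sets lie well above the floor in both genotypes, and Cd22 and Pou2af1 never reach the floor.

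Cd79a, the Ig-alpha chain, was read by 1 probe set per experiment, and both were designed from the same sequence record. In experiment 1 its scaled intensity was 0.122 in the transgenic and -41.4 in the wild-type sample, both under the floor, so no fold was formed. In experiment 2 it was 177.3 in the transgenic and 100.6 in the wild-type sample, a 1.76-fold difference (log2 ratio 0.82). The wild-type value lay just above the floor, and after quantile normalization or with equal medians it was under the floor, which makes the log2 ratio a lower bound of 0.84 or 0.85. With 1 experiment above the floor, Cd79a was not tested.

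Cd79b, the Ig-beta chain, was also read by 1 probe set per experiment from a shared sequence record. In experiment 1 it stood at 523.0 in the transgenic and 350.4 in the wild-type sample, 1.49-fold higher (log2 ratio 0.58). In experiment 2 it stood at 660.6 in the transgenic and 775.0 in the wild-type sample, and the log2 ratio was -0.23. The 2 experiments therefore differed in sign, although Cd79b was measured on all 4 arrays that carry it. Over n = 2 experiments its mean log2 ratio was 0.17 ± 0.356 (SE from limma), with a 95% interval of the fold from 0.662 to 1.92 and adjusted p = 0.961 in limma. The interval leaves room for a difference near 1.92-fold, so equal levels were not shown.

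Cd22, the inhibitory coreceptor, was under the floor throughout. Its probe set of experiment 1 gave -96.9 in the transgenic and -31.9 in the wild-type sample. That of experiment 2, designed from another sequence record, gave 9.86 in the transgenic and 43.1 in the wild-type sample. No fold was formed, and a difference was not detectable at these levels.

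Pou2af1, the octamer coactivator, was under the floor on every array too. In experiment 1 it gave 54.6 in the transgenic and 29.5 in the wild-type sample. In experiment 2 the brighter of its 2 probe sets gave 81.5 in the transgenic and 82.1 in the wild-type sample, and the other gave 2.82 in the transgenic and 8.45 in the wild-type sample. With a floor of 50, the first pair has a log2 ratio of at least 0.13 and the brighter pair of experiment 2 one of -0.01. A difference in Pou2af1 was not detectable at these levels.

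Blk, the Src family kinase, was read by 2 probe sets in each experiment, designed from the same 2 sequence records on both array types. In experiment 1 the brighter probe set stood at 712.5 in the transgenic and 253.8 in the wild-type sample, 2.81-fold higher. The dimmer one stood at 236.4 in the transgenic and 74.4 in the wild-type sample, at least 2.36-fold higher. In experiment 2 the probe set of the first record stood at 359.6 in the transgenic and 93.3 in the wild-type sample, at least 3.60-fold higher. That of the other record stood at 114.7 in the transgenic and 39.8 in the wild-type sample, at least 1.15-fold higher. The transgenic value exceeded the wild-type value in all 4 comparisons, but the wild-type value was under the floor in 3 of them. Without any floor, an alternative added once the data had been seen, the same 4 comparisons gave ratios of 2.81, 3.18, 3.85 and 2.88.

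Averaged over its probe sets, Blk was 2.58-fold higher in experiment 1 and 2.03-fold higher in experiment 2, both as lower bounds. Its mean log2 ratio over n = 2 experiments was 1.19 ± 0.341 (SE from limma), with an unadjusted 95% interval of the fold from 1.37 to 3.81. Blk did not pass over all genes tested (adjusted p = 0.501, limma). Over the 8 alternatives in which Blk was tested, the mean log2 ratio ran from 0.86 with a floor of 200 to 1.67 with the brightest probe set, and the adjusted p from 0.103 with equal medians to 0.999 without the pairing by experiment.

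**Figure D2:**
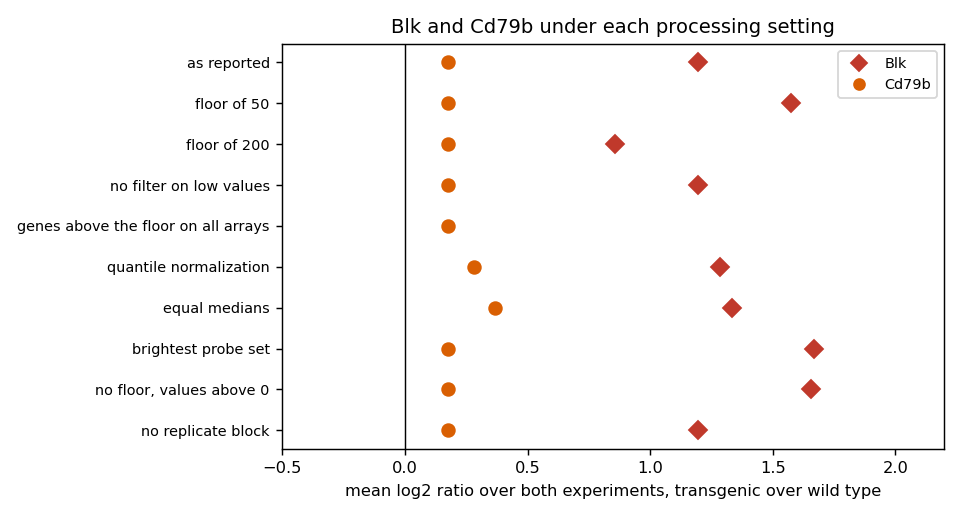
Mean log2 ratio over both experiments (x axis, transgenic over wild type) of Blk (red diamonds) and Cd79b (orange circles) under the reported processing and each alternative. Blk runs from 0.86 to 1.67 and has no value where every array had to exceed the floor, while Cd79b runs from 0.17 to 0.37.

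Of the 5 members, 2 could be tested, Blk and Cd79b, and 0 of these 2 passed in limma, while 1, Blk, had an unadjusted p under 0.05. Over all 3237 genes measured in both experiments, 0.154% passed as higher, 0% as lower, and 6.43% had an unadjusted p under 0.05. Blk was 1 of 14 genes that were at least 2-fold higher in both experiments, a share of 0.432% of the genes tested. Its sign in experiment 2 was fixed by the filter, since both its probe sets there passed the floor only in the transgenic sample. Per array type, 2 of the 3 member probe sets above the floor on Mu11K A were at least 2-fold higher, against 4.56% of all such probe sets of that array. On U74A it was 1 of 4, against 0.971% of all. All 3 belonged to Blk, and 0 member probe sets were 2-fold lower. Of the 3, the dimmer one of Mu11K A and the one of U74A passed only in the transgenic sample, so they had to come out higher.

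**Figure D3:**
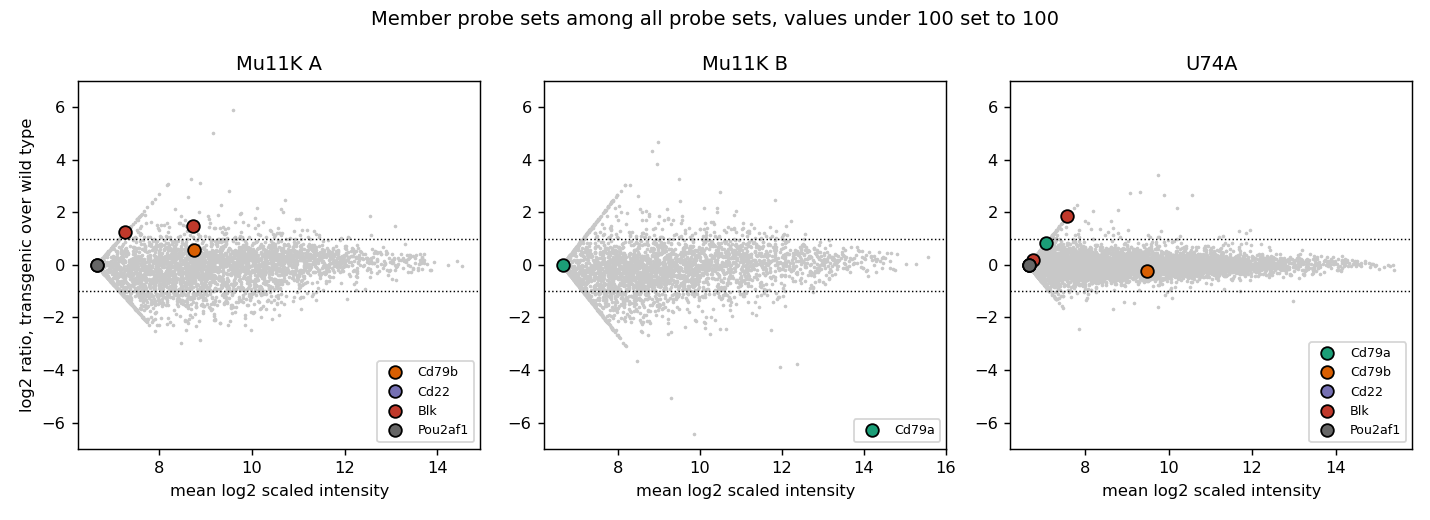
Log2 ratio of transgenic over wild type (y axis) against the mean log2 scaled intensity (x axis) for all probe sets of each array type (grey) and for the members (coloured), with values under 100 set to 100 and dotted lines at 2-fold. Cd22 and Pou2af1 coincide at the floor with a ratio of 0, Cd79b lies within the dotted lines, and 3 Blk points lie above the upper line.

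The genes whose pair of log2 ratios lay closest to that of Blk (1.36 and 1.02 in experiments 1 and 2) were the class II gene H2-Aa, at 1.34 and 1.08, and Cad, which encodes an enzyme of pyrimidine synthesis, at 1.46 and 0.98. Their Euclidean distances from Blk, over 2 experiments, were 0.0619 and 0.0993. Closest to Cd79b were Rab10os, a noncoding RNA gene, at 0.57 and -0.25, and Grina at 0.56 and -0.22, with distances of 0.0203 and 0.0232. None of these 4 genes passed in limma, with adjusted p from 0.482 to 0.961.

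The other genes of the B cell receptor pathway and the B lineage were taken from 5 lists. Of their 71 genes, 52 had a probe set and 28 were measured in both experiments. Of these 28, 16 were higher and 6 lower in both experiments, against 23.9% higher and 30.4% lower over all genes tested. The same shares are the background for the count of each list below over all its tested genes. Their median log2 ratios were 0.41 in experiment 1 and 0.07 in experiment 2, beside -0.05 and -0.02 over all genes. Of the 16, 5 (Ighd, Inpp5d, Spib, H2-DMa and H2-DMb1) were higher in both through a probe set above the floor in the transgenic sample alone, which had to come out higher. Over probe sets above the floor in both genotypes, 11 of 23 genes were higher and 6 lower in both, against 25.2% and 28.3% of 2808 genes, and the median of the 23 was 0.41 in experiment 1 and -0.04 in experiment 2. With equal medians, which moves the median of all genes in experiment 1 to 0.29, the split was 19 higher and 3 lower, against 38.2% and 16.8% of all genes. In limma 0 of the 28 passed, and 7 had an unadjusted p under 0.05, against 6.43% of all genes.

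**Figure D4:**
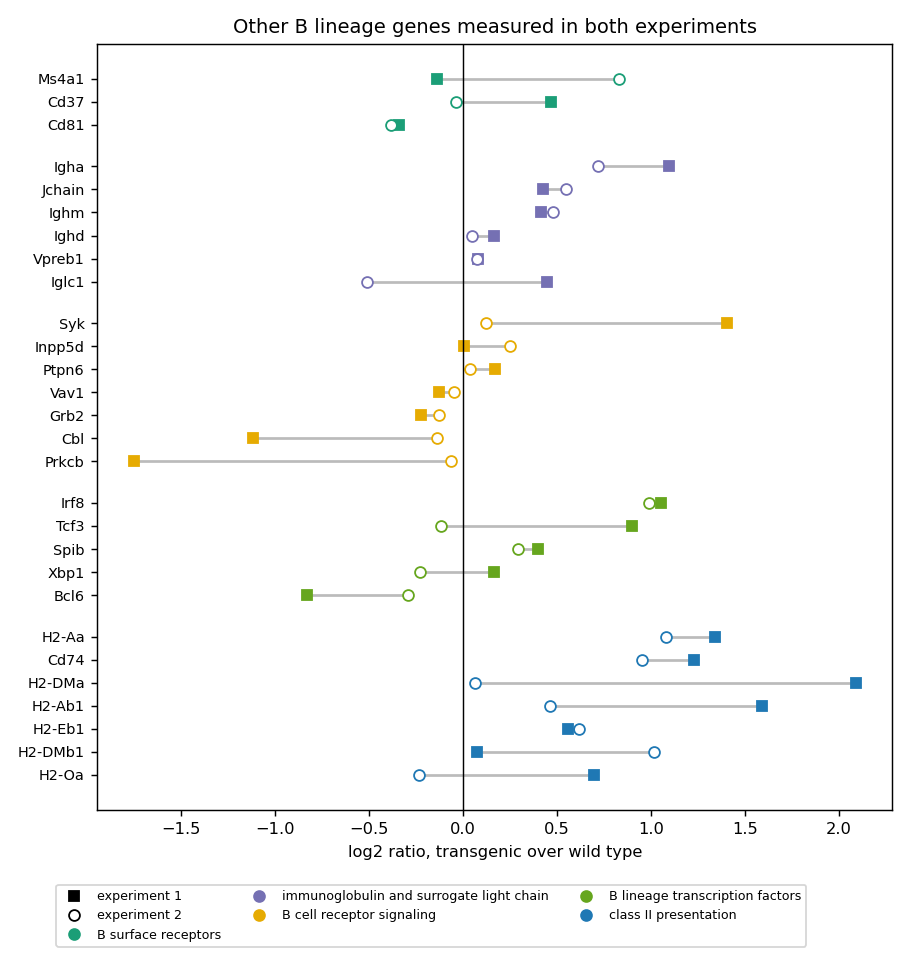
Log2 ratio of transgenic over wild type (x axis) in experiment 1 (filled squares) and experiment 2 (open circles) for the 28 other B lineage genes measured in both, coloured by list. The class II genes H2-Aa, Cd74, H2-Ab1 and H2-Eb1 lie right of 0 in both experiments, and Cbl, Prkcb, Bcl6 and Cd81 lie left of it in both, which for Cd81 in experiment 1 turns with equal medians.

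The class II presentation genes had the highest list medians, 1.23 in experiment 1 and 0.62 in experiment 2 over 7 tested genes. Of the 7, 6 were higher and 0 lower in both, against 23.9% and 30.4% of all genes. The direction of H2-DMa in experiment 1 and of H2-DMb1 in experiment 2 was fixed by the filter, since the wild-type value was under the floor. In experiment 2 the sign of H2-DMa also came from such a probe set, and its other one had a log2 ratio of -0.16. Of the 5 genes above the floor in both genotypes, 4 were higher in both. Class II molecules present peptide on B cells, dendritic cells and thymic epithelium. H2-Aa, the alpha chain of I-A, had 5 probe sets in experiment 1 with log2 ratios from 0.90 to 1.65, and 1 in experiment 2 with 661.4 in the transgenic and 313.1 in the wild-type sample. Cd74, the invariant chain, stood at 4243 in the transgenic and 1808 in the wild-type sample in experiment 1, and at 1403 against 723.9 in experiment 2. H2-Ab1 stood at 1924 against 638.8 in experiment 1 and 292.6 against 212.5 in experiment 2. The 2 probe sets of H2-Eb1 in experiment 1 disagreed, at log2 ratios of -0.25 and 1.37. None passed in limma, at adjusted p = 0.482 for H2-Aa, 0.643 for Cd74, 0.694 for H2-Ab1 and 0.803 for H2-Eb1.

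Without the class II list, 21 genes were tested, with medians of 0.17 and 0.04. In both experiments 10 were higher and 6 lower, against 23.9% and 30.4% of all genes. Of the 21, 3 had an unadjusted p under 0.05 in limma, against 6.43% of all genes. They were Igha and Irf8, which were higher, and Prkcb, which was lower. The adjusted p was 0.723 for Igha, 0.648 for Irf8 and 0.769 for Prkcb in limma.

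Immunoglobulin and surrogate light chain genes were higher in both experiments for 5 of 6 tested, and lower in both for 0, with medians of 0.42 and 0.28. Of all genes tested, 23.9% were higher and 30.4% lower in both. Ighd, the constant region of IgD, is among the 5 through a wild-type value under the floor in experiment 1, and 4 of the 4 genes above the floor in both genotypes were higher in both. Ighm, the constant region of IgM, had 4 of its 16 probe sets of experiment 2 above the floor. They disagreed in size, from 10560 in the transgenic and 10340 in the wild-type sample (log2 ratio 0.03) to 365.0 against 146.9 (1.31). Over the probe sets above the floor, Ighm had log2 ratios of 0.41 and 0.48 in experiments 1 and 2 (adjusted p = 0.872, limma). Igha, the constant region of IgA, had 508.7 in the transgenic and 237.6 in the wild-type sample in experiment 1, and 390.6 against 237.6 in experiment 2. The values of experiment 2 come from 1 of its 3 Igha probe sets, and the others lay under the floor in both genotypes. Jchain, which joins IgA and IgM into polymers, had log2 ratios of 0.43 and 0.55, and Vpreb1, a part of the surrogate light chain, of 0.08 and 0.07. Neither passed, at adjusted p = 0.863 and 0.981 in limma.

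Surface receptors gave 3 tested genes, 0 higher and 1 lower in both, with medians of -0.14 and -0.04, against 2 higher and 0 lower with equal medians. Ms4a1, which encodes CD20, was measured in experiment 1 by 1 probe set with 699.2 in the transgenic and 769.8 in the wild-type sample, while its other probe set there lay under the floor. In experiment 2 its 2 probe sets gave 157.6 in the transgenic and 89.5 in the wild-type sample, at least 1.58-fold higher, and 200.8 against a value under the floor, at least 2.01-fold higher. The sign for Ms4a1 thus differed between the 2 experiments, except with equal medians, where both ratios were above 0. Its sign in experiment 2 was fixed by the filter, since both probe sets there passed the floor only in the transgenic sample. Cd81, a tetraspanin that many cell types express, was the 1 that was lower in both, with log2 ratios of -0.34 and -0.38 (adjusted p = 0.884, limma), a sign that experiment 1 loses with equal medians.

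Signaling genes downstream of the receptor were split, with 3 of 7 higher and 4 lower in both and medians of -0.13 and -0.05. With equal medians 4 were higher and 2 lower, with medians of 0.25 and 0.01. Over probe sets above the floor in both genotypes 2 were higher and 4 lower, since Inpp5d then had log2 ratios of 0.01 and -0.19. Syk, the kinase that binds the phosphorylated CD79 motifs, had 771.5 in the transgenic and 291.1 in the wild-type sample in experiment 1 (log2 ratio 1.41). In experiment 2 it had 814.8 in the transgenic and 749.1 in the wild-type sample (0.12). Prkcb, a protein kinase C isoform, had log2 ratios of -1.75 and -0.07, and Cbl, a ubiquitin ligase, of -1.12 and -0.14. The adaptor gene Grb2 had -0.22 and -0.13, the first of which turns positive with equal medians. The differences of Syk, Prkcb and Cbl were thus mostly those of experiment 1.

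B lineage transcription factors gave 5 tested genes, 2 higher and 1 lower in both, with medians of 0.40 and -0.12. Irf8 had 321.0 in the transgenic and 154.9 in the wild-type sample in experiment 1, and 212.3 against 106.8 in experiment 2, where the wild-type value lay near the floor. Spib, an Ets factor, had log2 ratios of 0.40 and 0.29, but the 1 of its 2 probe sets of experiment 2 that was above the floor in both genotypes was at -0.06. Bcl6, the germinal center repressor, had log2 ratios of -0.83 and -0.29. Pax5, which commits cells to the B lineage, was under the floor in experiment 1, and in experiment 2 its brighter probe set stood at 173.1 in the transgenic and 191.1 in the wild-type sample.

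**Figure D5:**
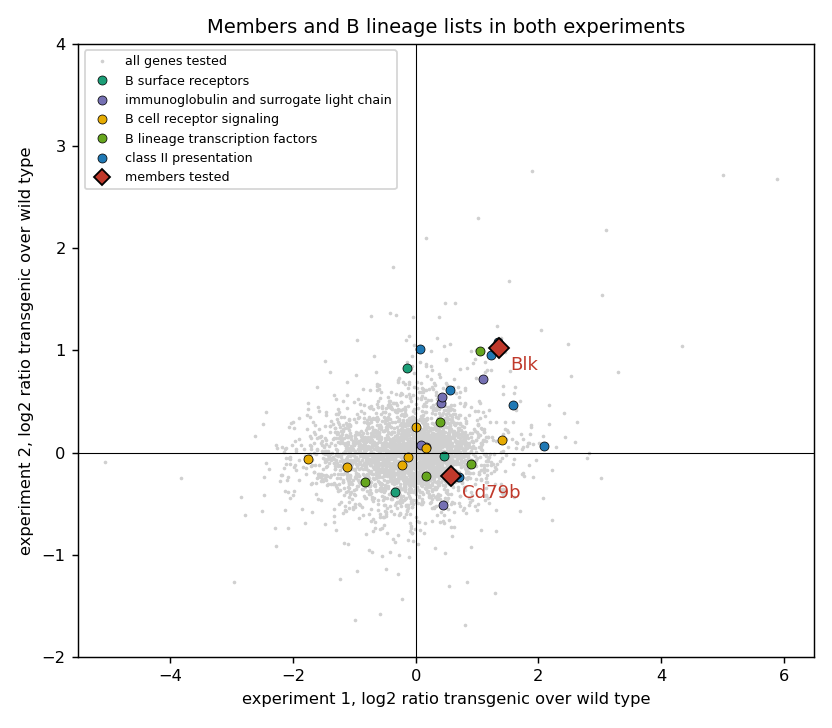
Log2 ratio of transgenic over wild type in experiment 1 (x axis) against experiment 2 (y axis) for the 3237 genes tested (grey), the 5 B lineage lists (coloured circles) and the tested members (red diamonds). Blk lies at 1.36 and 1.02, beside H2-Aa, and Cd79b lies at 0.58 and -0.23.

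The T cell counterparts were set beside these genes. Of the 5 receptor signaling genes Cd3d, Cd3e, Cd3g, Cd247 and Zap70, all tested, 1 was higher and 0 lower in both experiments, with medians of 0.11 and -0.05, against 0 higher after quantile normalization and 3 with equal medians. Cd3d had 14860 in the transgenic and 14130 in the wild-type sample in experiment 1, and 5520 against 5183 in experiment 2, and its ratio of experiment 1 turns below 1 after quantile normalization. Zap70 had the largest ratio of the 5 in experiment 1, at a log2 ratio of 1.04, and -0.19 in experiment 2 (adjusted p = 0.882, limma). Of the other Src family kinases 2 were tested, and Fgr was higher in both at log2 ratios of 0.38 and 0.43 (adjusted p = 0.881, limma), while Fyn had -0.03 and 0.32. Lck had no probe set that named it alone. Whether Blk differed from these genes was not tested.

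The summed level of the 10 B cell markers, members included, was 6160 in the transgenic and 4479 in the wild-type sample on Mu11K A, 13250 against 9881 on Mu11K B and 16940 against 15400 on U74A, and most of it was Ighm. Without Ighm it was 2239 in the transgenic and 1480 in the wild-type sample on Mu11K A, 13.9 against 0 on Mu11K B and 1968 against 1522 on U74A. Without Ighm and Blk, it was 1290 against 1152 on Mu11K A and 1494 against 1389 on U74A. The myeloid markers summed to 2523 in the transgenic and 2547 in the wild-type sample on Mu11K A, 1001 against 1160 on Mu11K B and 1711 against 1201 on U74A. Of these, Ctss, which encodes the protease cathepsin S that cleaves the invariant chain, had 404.1 in the transgenic and 162.0 in the wild-type sample in experiment 1, and 570.3 against 241.0 in experiment 2 (adjusted p = 0.431, limma). Other myeloid markers were mixed. Cd14 had log2 ratios of -0.115 and -0.19 in experiments 1 and 2, and Csf1r had -0.89 in experiment 2. Lyz2 (-0.32, then at least 1.35) and S100a8 (-0.41, then at least 0.59) changed sign between the experiments. For both, the sign in experiment 2 was fixed by the filter, since the wild-type value was under the floor. In experiment 1, Fcer1g had 0.30 and Mpo at least 0.33. Without Lyz2, the myeloid sum was 896.3 against 523.3 on Mu11K A and 1453 against 1141 on U74A. Most of that excess on Mu11K A and all of it on U74A was Ctss. Dendritic markers summed to 498.5 in the transgenic and 411.1 in the wild-type sample on Mu11K A, 21.2 against 0 on Mu11K B and 1158 against 1234 on U74A. Gamma-delta T cell markers without Sox13 itself summed to 836.9 in the transgenic and 545.3 in the wild-type sample on Mu11K A, 278.2 against 508.2 on Mu11K B and 593.2 against 224.7 on U74A. Among them Trgv1, a variable segment of the gamma chain, had 491.8 in the transgenic and 89.9 in the wild-type sample in experiment 2, at least 4.92-fold higher. In experiment 1 its probe sets gave 591.0 against 197.1 and 136.7 against a value under the floor, and it did not pass (adjusted p = 0.228, limma). Maf, of the same list, went the other way in experiment 1, at a log2 ratio of -1.195, and was under the floor in experiment 2. Cd44, Il17a and Zbtb16 were under the floor in both genotypes in both experiments. The sort was for CD4+CD8+ cells, and its purity was not measured here. The part of other cell types in the values of Blk and of the class II genes was not tested.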

How the data were processed

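The authors deposited 1 linear intensity per probe set for each of the 6 arrays. The series text names Affymetrix Microarray Analysis Software v4 and v5, and the submitters' processing notes name MAS5 for the U74A arrays. The sources used here do not give the software behind the Mu11K values, or any scaling target. The deposited Mu11K intensities include negative values, from 17.3% to 29.2% of an array, and the U74A values do not.

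Control probe sets and 21 Mu11K A probe sets with no wild-type value were left out. Intensities were scaled so that an array's 2% trimmed mean was 500, values under 100 were set to 100, and log2 was taken. Probe sets of a gene above the floor on at least 1 array of the pair were averaged within an experiment. A probe set named a gene only if the platform annotation gave it 1 symbol, checked against RefSeq genes of GRCm38.p6. Affymetrix names ending in _s_at or _f_at mark probe sets that can match several transcripts, and such probe sets were kept.

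The series text pairs the genotypes within each experiment and array type, which the ratio follows. The log2 ratios of both experiments were tested against 0 with limma 3.58.1 in R 4.3.3, two-sided, with Benjamini-Hochberg adjustment over 3237 genes and a threshold of 0.05. Its prior of 12.1 degrees of freedom, shared over genes, outweighs a gene's own spread between 2 experiments. The p-values thus rest mostly on the spread between experiments pooled over all genes, and little on that of the gene itself. They do not measure the spread between mice. Alternatives changed the floor, the filter, the scaling, the choice of probe set and the pairing.

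Named genes are the members, the Sox13 check, up to 4 genes per list with the largest smaller ratio of 1 sign in both experiments, the markers Ms4a1, Pax5, Ighm and Lck, and the 2 genes nearest each tested member. H2-DMa, H2-DMb1, Fyn, Gzma, Ighd, Inpp5d, Lyz2, Ctss and Trgv1 were named after their values were seen. So were Cd14, Csf1r, S100a8, Fcer1g, Mpo, Maf, Cd44, Il17a and Zbtb16. The same holds for Hba-a1, Hbb-b2, Klf1, Gata1, Alas2, Epor, Klrd1, Ncr1, Klrk1, Ptcra and Zap70. One further marker of the rule is not reported here. The members, the lists and the tests were chosen with earlier results of these data known. Marker lists of dendritic, NK, erythroid, stromal, gamma-delta T and double-positive cells were also summed.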

Additional observations from a re-analysis of the deposited data

How the results depend on the processing

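The count of members that passed stayed at 0 of those tested under all 9 alternatives, and so did that of the other B lineage genes. Blk kept a positive mean log2 ratio under the 8 alternatives that tested it, and it could not be tested where every array had to exceed the floor. Its wild-type values in experiment 2 lay under the floor as reported, and with a floor of 200, quantile normalization or equal medians. The Blk ratio of experiment 2 could not be negative in these settings, so the constant sign is not independent support. Leaving out an experiment gave Blk 1.02 or 1.36 and Cd79b -0.23 or 0.58, so the sign of Cd79b turns without experiment 1. The number of genes called over all genes was 5 as reported, 0 with a floor of 50, without a filter on low values, without a floor (added after seeing the data) and without the pairing (no replicate block), 2 where every array had to exceed the floor, 1 from each gene's brightest probe set, 15 after quantile normalization and 27 with equal medians. Member probe sets at least 2-fold apart numbered 3 as reported, 1 with a floor of 200 and 4 with a floor of 50. The other B lineage genes higher in both experiments, 16 of 28 as reported, were 10 of 22 with a floor of 200, 11 of 23 where every array had to exceed the floor and 13 of 28 from the brightest probe set. The cause of these changes was not tested. Signal near or under the floor limits what can be said of Cd79a, Cd22 and Pou2af1.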

Other observations

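Other marker lists gave these summed levels. NK markers summed to 9.69 in the transgenic and 21.6 in the wild-type sample on Mu11K A, 8604 against 1535 on Mu11K B, where the list is 1 gene, Gzma, and 1335 against 668.4 on U74A. Of the U74A sums, Gzma held 1262 in the transgenic and 605.2 in the wild-type sample. Klrd1, Ncr1 and Klrk1 lay under the floor there in both genotypes. Erythroid markers summed to 273.1 in the transgenic and 262.5 in the wild-type sample on Mu11K A, 3063 against 689.4 on Mu11K B and 2247 against 573.8 on U74A. The globin genes Hba-a1 (log2 ratios 1.9 and 2.76 in experiments 1 and 2) and Hbb-b2 (3.04 and at least 1.54) were higher. Klf1 was at 0.06 in experiment 1 and under the floor in experiment 2, and Gata1 was at most -0.52 and -0.07. Alas2 and Epor were under the floor in both genotypes in both experiments. Stromal and epithelial markers summed to 105.8 in the transgenic and 245.7 in the wild-type sample on Mu11K A, 305.9 against 187.9 on Mu11K B and 1066 against 1395 on U74A. Double-positive thymocyte markers summed to 21830 in the transgenic and 27650 in the wild-type sample on Mu11K A. On Mu11K B the sums were 59090 against 64880, and on U74A 127000 against 133100. Not every gene of that list was lower, and Ptcra had log2 ratios of 1.61 and 0.58 in experiments 1 and 2. These differences were not tested.

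Among class II genes, H2-DMa, a chaperone of peptide loading, had log2 ratios of at least 2.09 in experiment 1 and 0.06 in experiment 2 (adjusted p = 0.769, limma). The 0.06 averages a probe set with 920.8 in the transgenic and 1029 in the wild-type sample (-0.16) and one above the floor in the transgenic sample alone (at least 0.29). H2-DMb1, its partner chain, had 0.07 in experiment 1 and at least 1.02 in experiment 2 (adjusted p = 0.858, limma). Both genes were named after their values were seen.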
